A study of Sus scrofa with 2 samples.

Results

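The endoplasmic reticulum stress genes described here are 10 genes of the unfolded protein response: HSPA5, HSP90B1, PDIA4, DNAJB9, HERPUD1, XBP1, ATF4, DDIT3, CHAC1 and TRIB3. They were taken by symbol from 28155 genes, and all 10 were found. Their expression was measured cell by cell in cultured porcine adipose-derived stem cells (ADSCs), fibroblast-like progenitors that grow out of digested fat. The cells came from chest fat of Bama miniature pigs labelled healthy, were grown for 3 generations over at most 14 days and were then frozen. The labels name no treatment, allele or age. They form 1 group of 2 libraries made with the Chromium 3′ chemistry, in which a unique molecular identifier (UMI) lets each captured transcript be counted once. Whether separate animals or separate cultures gave the libraries is not stated in the labels. With 1 group, the comparisons below are between the libraries and between classes of cells within them.

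Proteins bound for secretion or for membranes are folded in the endoplasmic reticulum (ER) by chaperones and by enzymes that form disulfide bonds. When unfolded protein accumulates there, 3 sensors in the ER membrane signal to the nucleus. ATF6 is cut to release a transcription factor that raises chaperone genes such as HSPA5. IRE1 (gene ERN1) splices the XBP1 messenger, whose product raises genes of folding, translocation and degradation. PERK (gene EIF2AK3) slows translation while favouring the translation of ATF4, which raises genes of amino acid supply and, further along, DDIT3, TRIB3 and CHAC1. Other kinases that sense amino acid shortage, heme shortage or viral RNA feed into the same ATF4 step, so the ATF4 branch is not specific to the ER. In fibroblast-like cells the ER is loaded with collagen and other matrix proteins.

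Cells were the barcodes with at least 1000 genes: 10559 of 12251 (86.2%) in library 1 and 11984 of 12956 (92.5%) in library 2, with medians of 19845 and 19651.5 UMIs. The libraries shared 46 barcodes, 35 of them among the cells kept. Levels are given as CPM, the summed UMIs of a gene per 1000000 UMIs of all genes. To compare cells of unequal depth, each was thinned at random to 5000 UMIs, which left 9581 and 11598 cells (978 and 386 were too shallow). Stromal markers, which do not set ADSCs apart from other fibroblast-like cells, summed to 28080 and 30759 CPM in libraries 1 and 2. Of these sums 21922 and 22924 CPM were VIM, which many cell types express, and the more specific COL1A2 was at 2075 and 3034 CPM. Fat cell markers, among them ADIPOQ and FABP4, summed to 0.906 and 0.811 CPM. Sums were 11.8 and 15.2 CPM for endothelial genes, 29.1 and 22.9 for macrophage genes, 18.5 and 22.6 for mural genes, 15.3 and 13.0 for epithelial genes and 19.7 and 15.1 for plasma cell genes. In those 5 lists most of the sum was 1 gene (PECAM1, CD14, CSPG4, KRT19 and SDC1). Lymphocyte markers summed to 2.45 and 0.949 CPM with CD3D and MS4A1 at 0, and erythroid markers to 0.067 and 0.049 with HBB at 0.

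The chaperones were abundant, and the main one differed strongly between the libraries. HSPA5 (chr1:265930044-265934959 in Sscrofa11.1, positions here and below from RefSeq) encodes BiP, the Hsp70 chaperone of the ER that also holds the sensors inactive. Library 1 held 914 CPM of it (exact Poisson 95% interval 910.3 to 919) and library 2 held 279.7 CPM (278 to 282). This is a ratio of 3.27, or 1.71 on the log2 scale (1.70 to 1.72). HSP90B1 (chr5:80511513-80531016) encodes GRP94, the Hsp90 chaperone of the ER. It was at 724 CPM (721 to 728) and 596 CPM (593 to 599), a log2 ratio of 0.28. PDIA4 (chr9:109260850-109280256), a disulfide isomerase, was at 95.4 and 97.8 CPM, a log2 ratio of -0.03. Among these chaperones HSPA5 thus set the libraries apart, while HSP90B1 and PDIA4 lay within a factor of about 1.21.

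Of the genes of ER degradation and of the IRE1 arm, HERPUD1 (chr6:18901171-18913427), a membrane protein of ER-associated degradation, was counted at 315 and 229 CPM, a log2 ratio of 0.46. DNAJB9 (chr18:36578928-36584211), a co-chaperone that works with BiP and is a target of XBP1, was at 59.6 and 43.8 CPM, a log2 ratio of 0.44. XBP1 (chr14:46011239-46016526) was at 86.7 and 97.5 CPM, a log2 ratio of -0.17. Counts at the 3′ end do not separate its spliced from its unspliced form, so the activity of IRE1 was not measured.

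In the ATF4 branch the factor itself was abundant and its targets were scarcer. ATF4 (chr5:8742964-8745752) was counted at 720.4 CPM in the former library and 593 CPM in the latter, a log2 ratio of 0.28. Its output is controlled largely by translation, which these counts do not show. DDIT3 (chr5:22785441-22789867) encodes CHOP, a transcription factor tied to cell death under prolonged stress. It was at 144 CPM (142.4 to 146) and 63.3 CPM (62.3 to 64.3), a ratio of 2.28 and a log2 ratio of 1.19 (1.16 to 1.22). CHAC1 (chr1:130360510-130363332), an enzyme that degrades glutathione, was at 50.4 and 51.9 CPM, a log2 ratio of -0.04. TRIB3 (chr17:34808273-34819592), a pseudokinase that damps ATF4 signalling, was at 56.6 and 41.7 CPM, a log2 ratio of 0.44. Within this branch DDIT3 differed between the libraries by more than 2-fold and CHAC1 by hardly anything. In the RefSeq annotation DDIT3 overlaps MARS, and HSP90B1 overlaps C5H12orf73. Whether counting used strand is not given in the sources used here, so reads of such neighbours could be mixed.

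**Figure D1:**
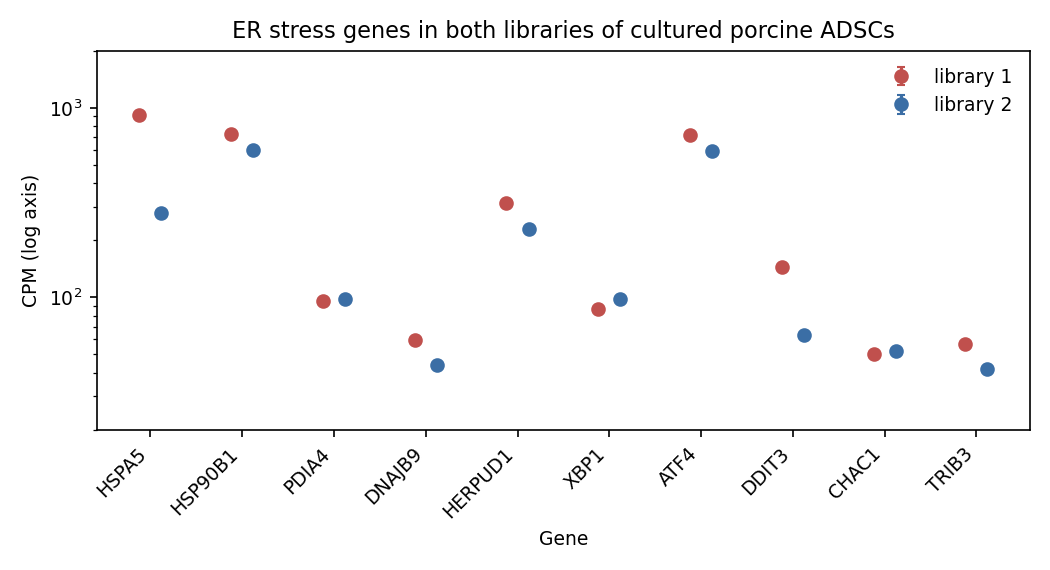
Level of each of the 10 genes in library 1 (red) and library 2 (blue), in CPM on a log axis, summed over cells with at least 1000 genes. Exact Poisson 95% intervals are drawn and are smaller than the points. HSPA5 (914 against 279.7) and DDIT3 (144 against 63.3) lie visibly apart, and the other 8 genes lie close together.

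Between the libraries, 2 of the 10 genes, HSPA5 and DDIT3, favoured library 1 by 2-fold or more and 0 favoured library 2. Of all 8042 genes averaging 10 CPM or more, 225 (2.8%) did so for library 1 and 29 (0.361%) for library 2. The log2 ratio of HSPA5 lay at percentile 99.0 of those genes and that of DDIT3 at 98.0. The median of the 10 genes was 0.36, beside -0.04 over all 8042 genes, and 7 of 10 were above 0. Each side is 1 sample, so the difference has no replicate check and no test was made. The intervals cover counting error only.

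The ratio was next read within comparable cells. HSPA5 gave log2 ratios of 1.81 in non-cycling cells and 1.67 in cycling cells. Over 3 bands of UMIs per cell, split at 14231 and 24142, it gave 1.82, 1.71 and 1.67 from the shallowest to the deepest band. DDIT3 gave 1.29 and 1.06 in non-cycling and cycling cells, and 1.31, 1.25 and 1.11 in the bands. HSPA5 and DDIT3 were therefore higher in library 1 in each of these strata. CHAC1 changed side, from 0.11 in non-cycling to -0.21 in cycling cells. Across the 8042 genes the log2 ratio fell with the length of genome that a gene spans (Spearman's rho -0.42, across genes, which are not independent). With that trend removed HSPA5 was at 1.65, DDIT3 at 1.13 and the median of the 10 genes at 0.34.

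Most other genes of the pathway did not share the size of the HSPA5 difference. Of 19 other ER folding genes 18 reached 10 CPM, and 0 of them differed 2-fold, with a median log2 ratio of 0.16. The widest ratio among them was that of HYOU1, an exchange factor for BiP, at 34.7 and 20.2 CPM (0.78). The remaining folding gene, ERO1B, averaged under 10 CPM and had a wider ratio, at 10.6 and 3.67 CPM (1.53). Translocation and degradation genes had a median of 0.09 (0 of 19 past 2-fold), and the sensors and their processing enzymes a median of -0.14 (0 of 12). Of the sensor genes, EIF2AK3 was at 47.2 and 30.5 CPM (0.63) and ERN1 at 65.6 and 48.3 CPM (0.44). ATF6 went the other way, at 71.3 and 79.8 CPM (-0.16), and the protease gene MBTPS2, whose product cuts ATF6, was at 11.9 and 20.9 CPM (-0.81). Among 21 other ATF4 target genes at 10 CPM, 3 were 2-fold higher in library 1 and 0 in library 2, with a median of -0.00. These were the transcription factor ATF3 (307 and 102 CPM, 1.59), the mTORC1 inhibitor DDIT4 (151 and 68.6 CPM, 1.14) and PPP1R15A, which restores translation (304 and 150.3 CPM, 1.02). The targets ALDH1L2 (46.7 and 83.7 CPM) and SLC7A11 (57.3 and 101.9 CPM) lay higher in library 2. CTH (15.4 and 9.72 CPM) lay higher in library 1, and 10 of the 21 had a log2 ratio above 0. Genes named here with a ratio under 2-fold were chosen after their values were seen.

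Some genes of other acute responses were also higher in library 1. Of 16 immediate early genes, which respond within minutes to many stimuli, 6 favoured library 1 by 2-fold or more and 0 favoured library 2. Their median log2 ratio was 0.68, and 13 of 16 were above 0. EGR1 (77.6 and 112.8 CPM, -0.54), FOSB (79.3 and 101.0 CPM, -0.35) and KLF4 (-0.02) were higher in library 2. IER3 was at 505 and 69.9 CPM (2.85), DUSP1 at 933 and 273 CPM (1.77) and ZFP36 at 128 and 43.4 CPM (1.57). Of 10 heat shock genes of the cytosol and mitochondria 2 were 2-fold higher in library 1, DNAJB1 (117 and 36.7 CPM, 1.67) and BAG3 (232 and 88.5 CPM, 1.39), with a median of 0.40. Collagens and other matrix cargo had a median of -0.45, and COL5A2 was at 339 and 691 CPM (-1.03). The part of these lists in the HSPA5 and DDIT3 differences was not tested.

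The 10 genes differed in how they were spread over cells. After thinning, HSPA5 was detected in 94.9% of cells in library 1 and 68.3% in library 2 (98.4% and 92.0% in full counts). Its quartiles were 2, 4 and 6 UMIs per cell in library 1 and 0, 1 and 2 in library 2, with maxima of 23 and 16. Each quartile was thus higher in library 1, and the median cell of library 2 held 1 UMI. HSP90B1 was detected in 92.7% and 90.9% of thinned cells (96.6% and 98.3% in full counts), ATF4 in 95.6% and 92.5% (98.0% and 98.6%) and HERPUD1 in 71.5% and 65.4% (90.4% and 92.5%). PDIA4 gave 37.2% and 37.8% (73.7% and 78.3%), XBP1 34.6% and 39.0% (71.7% and 78.2%) and DNAJB9 24.6% and 20.3% (58.7% and 52.5%). In the ATF4 branch, DDIT3 was in 49.1% and 24.5% of thinned cells (81.9% and 60.5% in full counts), TRIB3 in 23.4% and 18.5% (56.8% and 47.0%) and CHAC1 in 19.0% and 18.8% (40.0% and 41.3%).

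Free RNA in droplets can give UMIs in cells that do not express a gene. No cell type that should lack these genes was identified here, so the amount of free RNA was not measured. The barcodes with fewer than 1000 genes held the same genes, HSPA5 at 1091 and 392 CPM in libraries 1 and 2 (914 and 279.7 CPM in cells) and CHAC1 at 49.1 and 32.4 CPM (50.4 and 51.9 CPM in cells). Shares of cells with a UMI are therefore not read as shares of expressing cells.

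The genes were unevenly spread over cells to different degrees. The 10% of cells with most CHAC1 held 65.1% of its thinned UMIs in library 1 and 65.5% in library 2. The same share of cells held 23.9% and 31.3% of HSPA5 UMIs and 22.3% and 23.4% of ATF4 UMIs. Since a scarce gene is concentrated by counting alone, the Fano factor (variance over mean, 1 for pure counting) was also taken. It was 1.43 and 1.47 for CHAC1, 1.32 and 1.20 for DDIT3, and 1.13 and 1.17 for TRIB3, a gene of similar level to CHAC1. For comparison, genes with a mean of at least 0.2 UMIs had medians of 1.08 and 1.06. Among the chaperones HSPA5 had 2.00 and 1.38, HSP90B1 1.70 and 1.55 and PDIA4 1.02 and 1.07. HERPUD1 was at 1.57 and 1.19, ATF4 at 1.36 and 1.35, DNAJB9 at 1.08 and 1.05 and XBP1 at 1.04 and 1.02, so the last of these varied little beyond counting. Where cells differ in level, the Fano factor grows with the mean. Mean UMIs per thinned cell were 4.43 and 1.35 for HSPA5, 3.51 and 3.01 for HSP90B1, and 0.26 in both libraries for CHAC1. Genes of such unlike level are therefore not ranked by it, nor is HSPA5 between the libraries.

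**Figure D2:**
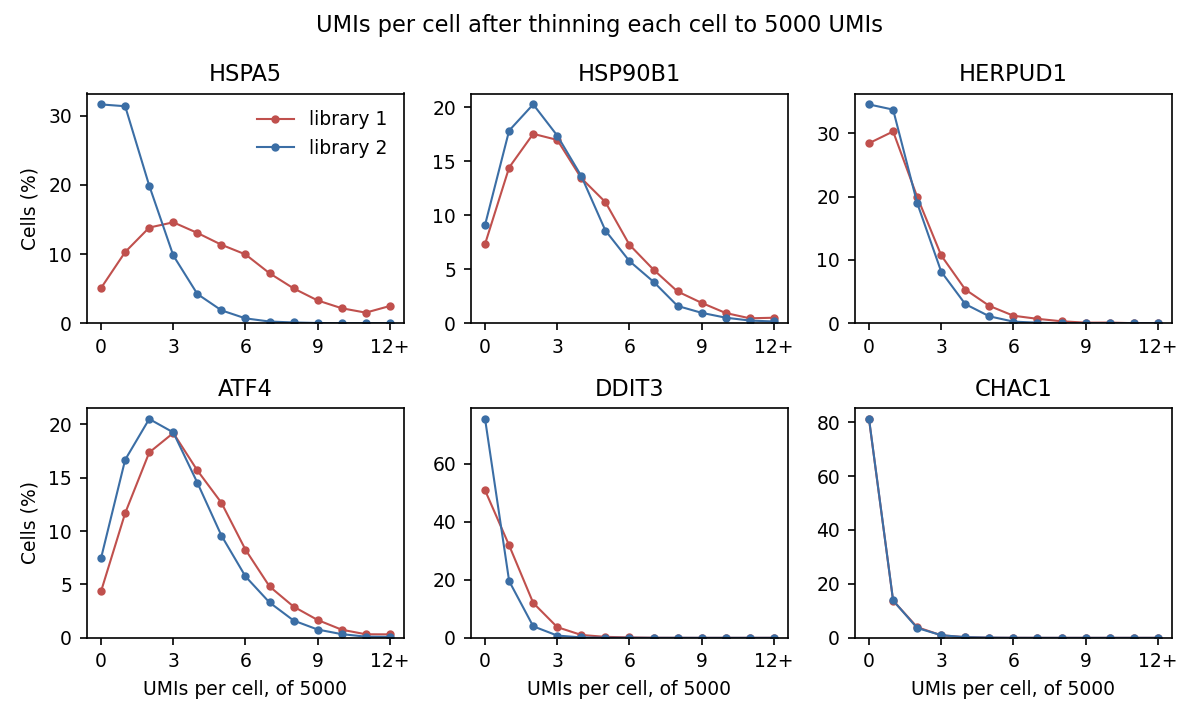
Share of cells (y axis, %) by the number of UMIs of 6 of the genes per cell (x axis, of 5000 UMIs after thinning) in library 1 (red, 9581 cells) and library 2 (blue, 11598 cells). The HSPA5 curve of library 1 peaks at 3 UMIs, while that of library 2 falls from 0. The CHAC1 curves of the libraries overlie each other.

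Across cells the chaperones correlated weakly with each other, as did CHAC1, TRIB3 and DDIT3, and pairs across these groups centred on 0. Pearson's r over thinned UMIs is given as a description, since cells of a library share their library and sparse counts hold r near 0. The 3 pairs of chaperones were above 0 in both libraries, from 0.071 to 0.224 in library 1 and from 0.062 to 0.135 in library 2. The 3 pairs among CHAC1, TRIB3 and DDIT3 were also above 0, from 0.064 to 0.094 and from 0.053 to 0.114. The 9 pairs of a chaperone with an ATF4 branch gene had medians of -0.010 and -0.011, and 4 of 9 were above 0 in each library. HSP90B1 with CHAC1 was the lowest pair, at -0.092 and -0.070.

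The strongest single pair was HSPA5 with HERPUD1 in library 1, at 0.255, which was 0.081 in library 2. HSPA5 with HSP90B1 gave 0.224 and 0.135. ATF4 correlated with its targets in both libraries: with CHAC1 at 0.140 and 0.169, with DDIT3 at 0.106 and 0.096, and with TRIB3 at 0.082 and 0.103. In shares of cells, TRIB3 was detected in 30.2% of cells with CHAC1 against 21.8% of those without in library 1, and in 27.2% against 16.5% in library 2. CHAC1 was detected in 19.6% of cells with ATF4 against 6.44% of those without in library 1, and in 19.5% against 10.1% in library 2. With HSP90B1 the order was the opposite: 18.8% of cells with it had CHAC1 against 21.0% without in library 1, and 18.4% against 23.4% in library 2.

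**Figure D3:**
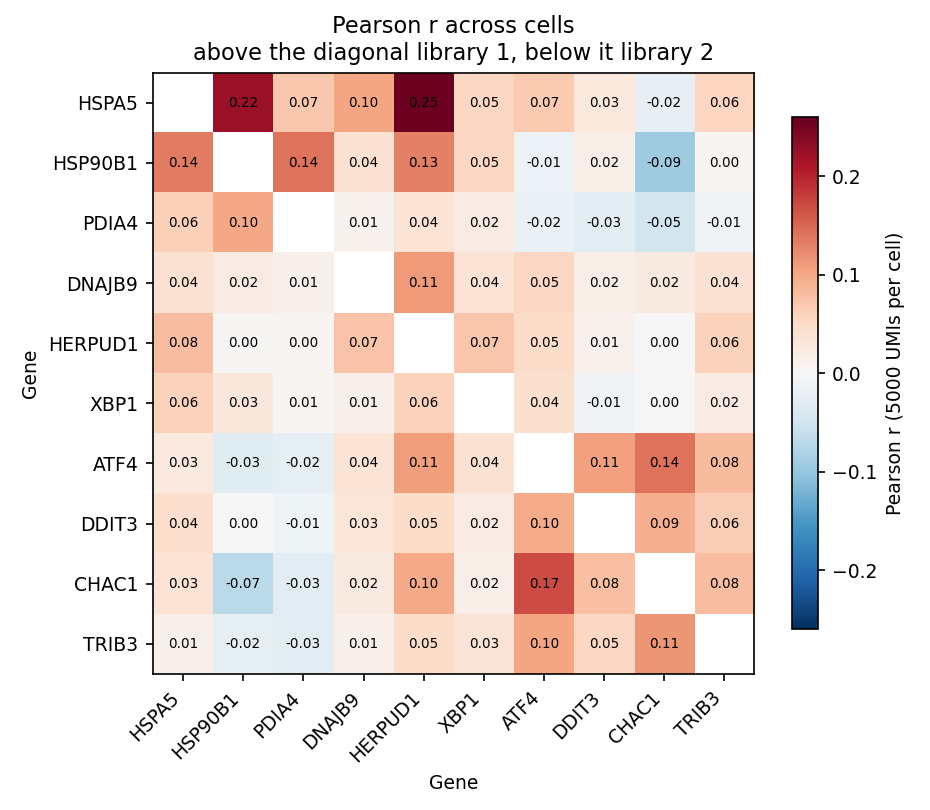
Pearson's r across cells for each pair of the 10 genes after thinning to 5000 UMIs, for library 1 above the diagonal (9581 cells) and library 2 below it (11598 cells). Red squares mark positive and blue squares negative values. The largest values are HSPA5 with HERPUD1 (0.255) above the diagonal and ATF4 with CHAC1 (0.169) below it, and HSP90B1 with CHAC1 is the bluest pair on both sides.

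The genes most like HSPA5 and most like CHAC1 were different ones. Likeness was the lower of the libraries' r, over 7566 genes with UMIs in at least 5% of cells. For HSPA5 the leading genes were HSP90B1 (0.135), the cytosolic chaperone HSPA8 (0.132), the ubiquitin gene UBB (0.106) and the RNA-binding proteins HNRNPA2B1 (0.092) and SFPQ (0.090). HERPUD1 ranked 7, PDIA4 21, XBP1 44 and DNAJB9 93. Of the ATF4 branch, DDIT3 ranked 256, ATF4 314, TRIB3 956 and CHAC1 6439. For CHAC1 the leading genes were the serine synthesis enzyme PSAT1 (0.211), asparagine synthetase ASNS (0.179), COL1A1 (0.157), DDIT4 (0.144) and the stress-induced NUPR1 (0.140). ATF4 ranked 6, TRIB3 26 and DDIT3 29, while HSPA5 ranked 6028, PDIA4 7417 and HSP90B1 7563. The 99th percentile of the 7566 genes was 0.043 for HSPA5 and 0.048 for CHAC1.

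Cells with much HSPA5 also held more HSP90B1 and DNAJB9, and differed little in ATF4. HSPA5-high cells were those above the 75th percentile of thinned HSPA5 UMIs in their library (more than 6 in library 1, more than 2 in library 2), and HSPA5-low cells those at or below the 25th (at most 2 and 0). This gave 2086 high and 2802 low cells in library 1 and 1977 and 3671 in library 2. The classes were chosen on HSPA5, which stood at 1411 against 511 CPM in library 1 and at 472 against 160.3 CPM in library 2 and was not tested. UMIs were summed per library and class and tested with edgeR with the library as a block, over 16379 genes.

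HSP90B1 was at 869.8 CPM in high and 587 CPM in low cells of library 1, and at 683 and 537 CPM in library 2. The log2 fold change was 0.43 ± 0.07 (SE, n = 2 libraries; edgeR adjusted p = 0.00356). DNAJB9 was at 74.1 and 47.2 CPM in library 1 and at 51.2 and 39.7 CPM in library 2, a log2 fold change of 0.48 ± 0.09 (edgeR adjusted p = 0.00471). HERPUD1 was at 420.4 against 221 CPM and 262 against 209 CPM. It had the largest estimate, 0.59 ± 0.14, but the libraries disagreed in size (0.89 and 0.30) and it missed the threshold (edgeR adjusted p = 0.193). PDIA4 (0.32 ± 0.08, edgeR adjusted p = 0.0691) and XBP1 (0.30 ± 0.08, edgeR adjusted p = 0.102) also missed it. With no filter on low counts all 3 passed (edgeR adjusted p = 3.56e-09 for HERPUD1, 0.0218 for PDIA4 and 0.0469 for XBP1). Counting also genes that missed the threshold, 8 of the 9 had a value above 0 in both libraries, the exception being CHAC1. The same count was not made over all genes, so it is not read as a trait of the group.

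In the ATF4 branch 0 genes passed. ATF4 had a log2 fold change of 0.06 ± 0.07 (edgeR adjusted p = 0.825), DDIT3 0.19 ± 0.08 (edgeR adjusted p = 0.384) and TRIB3 0.23 ± 0.08 (edgeR adjusted p = 0.272). CHAC1 had opposite signs in the libraries, at 47.9 against 55.0 CPM in library 1 (-0.24) and at 62.3 against 48.9 CPM in library 2 (0.33). In all, 2 of 9 genes tested passed as higher and 0 as lower, and DESeq2 also passed 2. At an unadjusted p under 0.05 there were 7, against 10.6% of all genes. The background was 0.25% of all genes passing as higher and 0.409% as lower. It covers all genes tested, scarce ones included, and was not matched for the level of the 9. With a log2 fold change of at least 0.5 as well, 0 of the 9 were called, against 0.379% of all genes. The median of the 9 was 0.30 and that of all genes tested -0.00.

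Some other folding genes rose with HSPA5. Of 19, 4 passed as higher and 0 as lower, with a median of 0.19. They were HYOU1 (0.50 ± 0.09), the BiP co-chaperone DNAJC3 (0.46 ± 0.08) and the disulfide isomerases PDIA6 (0.42 ± 0.09) and PDIA3 (0.38 ± 0.08), with edgeR adjusted p from 0.00365 to 0.0247. HYOU1 stood at 42.5 against 27.2 CPM in library 1 and 23.3 against 17.4 CPM in library 2. In translocation and degradation 0 of 20 passed (median 0.13), among sensors 0 of 12 (0.10) and among immediate early genes 0 of 17 (0.27). Of 26 other ATF4 targets 1 fell, the secreted stress factor GDF15 (-0.82), named after its value was seen, and 0 rose (median 0.06). GDF15 was scarce, at 2.63 against 4.87 CPM in library 1 and 2.39 against 3.85 CPM in library 2. Of 12 heat shock genes HSPA8 rose (0.28 ± 0.07), and of 9 cargo genes FN1 fell (-0.42 ± 0.07). Outside the lists the largest rises among genes averaging 10 CPM or more were those of the pentraxin PTX3 (0.73 ± 0.09), HES1 (0.57 ± 0.12), AKR1D1 (0.55 ± 0.10) and MMP25 (0.53 ± 0.11). In library 2 HES1 (3.13 against 2.45 CPM) and MMP25 (8.39 against 6.59 CPM) were scarcer than that. The rises were smaller in library 2 than in library 1 for HES1 (0.33 and 0.69), AKR1D1 (0.32 and 0.75) and MMP25 (0.33 and 0.70), but not for PTX3 (0.86 and 0.60).

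Median depth was 22648.5 UMIs in high and 19094 in low cells of library 1, and 22823 and 17726 in library 2. Cycling cells made up 40.0% and 38.7% in library 1 and 41.7% and 37.7% in library 2. The part of depth was not tested beyond cells of 15000 to 30000 UMIs, a range chosen after seeing the data, where HSP90B1 and DNAJB9 still passed. Both lost the threshold with thinning to 3000 UMIs (edgeR adjusted p = 0.0663 and 0.156), with the 90th and 10th percentiles as limits (0.107 and 0.132), in non-cycling cells alone (0.0507 and 0.0708) and without the library block (edgeR adjusted p = 0.99996 as the lowest of the 9 genes, 1 of which had an unadjusted p under 0.05, against 0.781% of all genes).

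The steps between were read from bins of cells by HSPA5 UMIs. In library 1, from cells with 0 to 2 UMIs to those with 8 to 23, HERPUD1 went from 221 to 439 CPM, HSP90B1 from 587 to 888, DNAJB9 from 47.2 to 75.8 and PDIA4 from 82.5 to 110.1 CPM. CHAC1 went from 55.0 to 46.7 CPM and ATF4 from 684 to 743 CPM. In library 2, from cells with 0 to those with 3 to 16 UMIs, HERPUD1 went from 209 to 262 CPM, HSP90B1 from 537 to 683 and PDIA4 from 88.8 to 110.4 CPM. The lowest bin of library 1 held more HSPA5 (511 CPM) than the highest bin of library 2 (472 CPM). HERPUD1 and HSP90B1 were nevertheless lower in that bin of library 1 (221 and 587 CPM) than in that of library 2 (262 and 683 CPM). These bins were set on HSPA5 UMIs and lie at opposite ends of their libraries, so they do not compare the libraries at equal HSPA5. Over all cells HERPUD1 (315 and 229 CPM) and HSP90B1 (724 and 596 CPM) were higher in library 1.

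**Figure D4:**
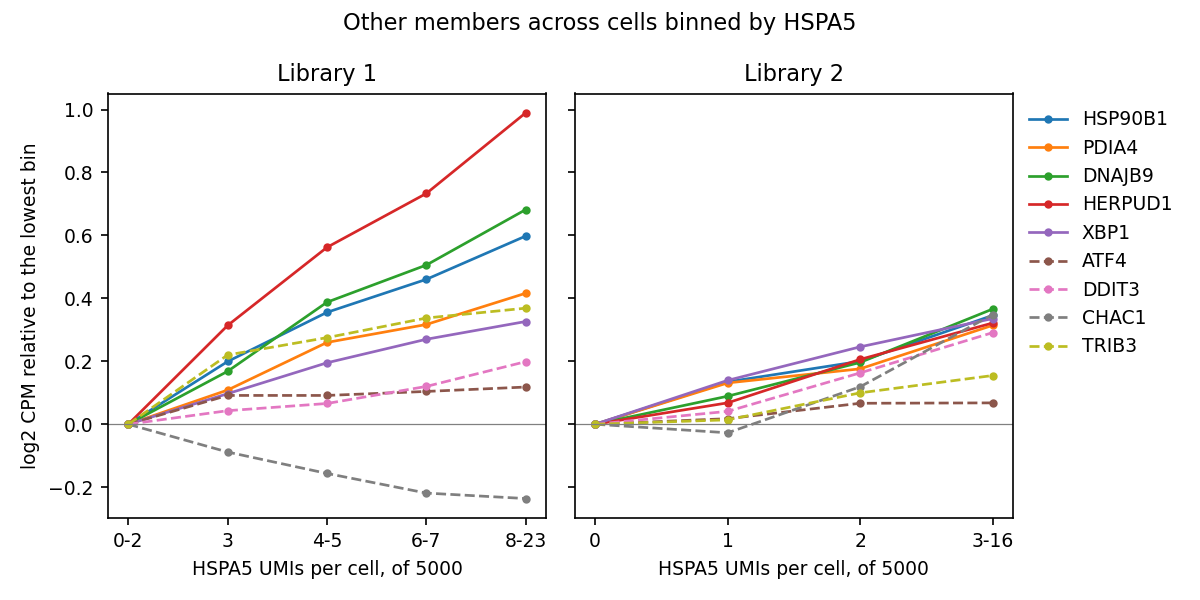
Summed level of the other 9 genes in cells binned by HSPA5 UMIs (x axis, of 5000 UMIs), as log2 CPM relative to the lowest bin of the library. Solid lines are the chaperones HSP90B1 and PDIA4 with DNAJB9, HERPUD1 and XBP1, and dashed lines are ATF4 and its targets. HERPUD1 climbs furthest in library 1 (221 to 439 CPM), and CHAC1 slopes down in library 1 and up in library 2.

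Cells with UMIs of CHAC1 or TRIB3 held more ATF4 and DDIT3 and slightly less HSP90B1 and PDIA4. Cells were called detected with at least 1 thinned UMI of either gene, which gave 3515 of 9581 cells in library 1 and 3737 of 11598 in library 2. CHAC1 and TRIB3 defined the classes and were not tested. ATF4 was at 803 CPM in detected and 674 CPM in other cells of library 1, and at 697 and 545 CPM in library 2. The log2 fold change was 0.33 ± 0.02 (SE, n = 2 libraries; edgeR adjusted p = 6.1e-05). DDIT3 was at 164 against 132 CPM and at 76.5 against 57.0 CPM, a log2 fold change of 0.40 ± 0.03 (edgeR adjusted p = 2.39e-06).

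The remaining genes moved by less. HERPUD1 (0.23 ± 0.03), DNAJB9 (0.19 ± 0.03), XBP1 (0.13 ± 0.02) and HSPA5 (0.08 ± 0.01) passed as higher, with edgeR adjusted p from 0.000732 to 0.00691. HSP90B1 fell, from 741 to 697 CPM in library 1 and from 613 to 559 CPM in library 2 (-0.08 ± 0.02, edgeR adjusted p = 0.0032). PDIA4 fell as well, from 97.4 to 91.6 and from 101.2 to 90.4 CPM (-0.10 ± 0.03, edgeR adjusted p = 0.029). The chaperones therefore did not move together, HSPA5 being on the higher side. Of the 8 genes tested 6 passed as higher and 2 as lower, against 6.18% and 2.64% of 17893 genes. Those shares include genes under 10 CPM, scarcer than the 8, and were not matched for level. With a fold of 0.5 on the log2 scale 0 of the 8 were called, against 0.604% of all genes. At an unadjusted p under 0.05 there were also 6 and 2, against 3587 of the 17893 genes in either direction, and DESeq2 passed 4 as higher and 0 as lower. The median of the 8 was 0.16, that of all genes 0.01.

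Most other ATF4 targets rose. Of 26, 21 passed as higher and 0 as lower, 10 of them by at least 0.5, with a median of 0.48. PSAT1 rose from 90.7 to 166 CPM in library 1 and from 112 to 234 CPM in library 2 (1.00 ± 0.05, edgeR adjusted p = 0.000711). ASNS (0.75 ± 0.05) rose from 71.1 to 109 and from 74.9 to 132 CPM, and the cystine transporter SLC7A11 (0.69 ± 0.08) from 48.9 to 69.6 and from 82.5 to 143 CPM. Outside the lists the largest rises were those of the lipocalin LCN2 (0.93 ± 0.04), the amino acid transporters SLC6A9 (0.80 ± 0.04) and SLC1A4 (0.77 ± 0.07), PDZK1IP1 (0.70 ± 0.03) and the cystathionine synthase CBS (0.66 ± 0.05).

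The ER folding genes went both ways. Of 19, 4 passed as higher and 3 as lower, with a median of -0.01. The collagen chaperone SERPINH1 had the largest rise (0.31 ± 0.02), followed by PDIA5 (0.17 ± 0.03), TXNDC5 (0.09) and P4HB (0.07), and SDF2L1 had the largest fall (-0.15 ± 0.03), with CRELD2 (-0.13) and CALR (-0.09). The 9 cargo genes all passed as higher, with a median of 0.19, COL1A1 at 1216 against 969 CPM and 1644 against 1238 CPM (0.40 ± 0.02). Among sensors ATF6 (0.30 ± 0.03) and the ER-bound transcription factor CREB3L1 (0.48 ± 0.03) rose, and 10 of 12 did not pass. In translocation and degradation 5 of 20 passed as higher and 1 as lower (median 0.04), namely UBE2J1 (0.13 ± 0.03), SEL1L, SEC61A1, SEC61G and SEC61B, and VCP (-0.09). Of 17 immediate early genes 10 rose, by at most 0.24 (MYC), and of 12 heat shock genes HSPA9 and HSPB1 rose and HSPA8, HSPD1 and HSPE1 fell, by at most 0.13 in size.

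Cycling cells made up 33.8% of detected and 43.5% of other cells in library 1, and 36.7% and 40.7% in library 2. In non-cycling cells alone ATF4 (0.28, edgeR adjusted p = 2.7e-10), DDIT3 (0.42, edgeR adjusted p = 5.3e-10), HSP90B1 (-0.10, edgeR adjusted p = 0.0253) and XBP1 (0.14, edgeR adjusted p = 0.0499) still passed. HSPA5 (0.07, edgeR adjusted p = 0.245), PDIA4 (-0.11, 0.225), DNAJB9 (0.12, 0.259) and HERPUD1 (0.11, 0.754) did not. Without the library block none of the 8 passed (lowest edgeR adjusted p = 0.99998), and 0 had an unadjusted p under 0.05. With DESeq2, HSPA5 (adjusted p = 0.179), HSP90B1 (0.0878), PDIA4 (0.331) and XBP1 (0.0978) were lost. HERPUD1 was also lost at 3000 UMIs (edgeR adjusted p = 0.0732), without the cells of highest UMI count (0.0984) and with CHAC1 alone as the criterion (0.224), the last of which also lost HSPA5 (0.126).

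Cycling cells held more HSP90B1 and PDIA4 than non-cycling cells, and less CHAC1, TRIB3, HERPUD1 and DNAJB9. A cell counted as cycling when 3 or more of 15 core cycle genes had UMIs after thinning (3826 in library 1 and 4568 in library 2), and as non-cycling when 0 had (1869 and 2524). Cycling cells held 817 CPM of HSP90B1 where non-cycling cells held 603 CPM in library 1, and 669 against 465 CPM in library 2. The log2 fold change was 0.42 ± 0.05 (SE, n = 2 libraries; edgeR adjusted p = 4.36e-09). PDIA4 was at 105.1 against 81.6 and 108.4 against 81.1 CPM (0.33 ± 0.05, edgeR adjusted p = 1.65e-06). HSPA5 did not pass, at 908 against 924 CPM in library 1 and 286 against 264 CPM in library 2 (-0.02 ± 0.05, edgeR adjusted p = 0.843).

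CHAC1 had the largest difference of the 10 genes. Its level was 38.2 against 70.2 CPM in library 1, and 44.0 against 65.0 CPM in library 2, lower in the cycling cells of both. The log2 fold change was -0.78 ± 0.06 (edgeR adjusted p = 4.71e-12). TRIB3 fell from 60.5 to 52.0 CPM and from 44.6 to 40.3 CPM (-0.24 ± 0.05, edgeR adjusted p = 0.000307). DDIT3 did not pass (-0.10 ± 0.05, edgeR adjusted p = 0.123). ATF4 passed narrowly at -0.13 ± 0.05 (edgeR adjusted p = 0.0365) and was lost with no filter on low counts (0.0826), at 3000 UMIs (0.208) and without the cells of highest UMI count (0.0637).

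HERPUD1 and DNAJB9 fell here, as CHAC1 and TRIB3 did. HERPUD1 fell from 350.2 to 279 CPM in library 1 and from 263 to 196 CPM in library 2 (-0.44 ± 0.05, edgeR adjusted p = 5.09e-09). DNAJB9 fell from 65.0 to 51.8 and from 49.9 to 37.1 CPM (-0.44 ± 0.06, edgeR adjusted p = 1.45e-08). XBP1 was at 0.00 ± 0.05 (edgeR adjusted p = 0.986). Of the 10 genes 2 passed as higher and 5 as lower, against 21.9% and 22.9% of 16987 genes, so the count of higher genes was near the background. CHAC1 was the 1 gene called with a log2 fold change of at least 0.5, against 18.1% of all genes, so this count says nothing about the group. The median of the 10 was -0.12 and that of all genes -0.01. Without the library block none passed (lowest edgeR adjusted p = 0.0701, CHAC1). In that fit 2 of 10 had an unadjusted p under 0.05, near the 17.0% of all genes.

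Of 19 other folding genes 7 passed as higher and 6 as lower (median 0.11). This count, and those of the lists that follow, stand beside 21.9% of all genes passing as higher and 22.9% as lower. CRELD2, an ER-resident protein, rose from 37.1 to 66.1 and from 34.6 to 65.9 CPM (0.82 ± 0.06), and the calcium-binding chaperone CALR rose by 0.36 ± 0.05. SERPINH1 (-0.43 ± 0.05) and PDIA5 (-0.33 ± 0.06) fell. Of 26 other ATF4 targets 18 passed as lower and 3 as higher, with a median of -0.31. NUPR1 fell from 781 to 375 and from 632 to 312 CPM (-1.10 ± 0.05), ALDH1L2 by 0.84 on the log2 scale and the tryptophanyl-tRNA synthetase WARS by 0.63. The 3 that rose were SLC7A5, ATF5 and CTH, by 0.20 to 0.30. Of the 12 sensors and processing genes 5 fell: CREB3L1 (-0.68 ± 0.05), ATF6 (-0.28 ± 0.05), CREB3L2 (-0.27), EIF2AK3 (-0.22) and ERN1 (-0.19). Those that rose were EIF2S1, the translation factor that PERK modifies (0.34 ± 0.05), and the heme-sensing kinase gene EIF2AK1 (0.32 ± 0.08).

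Of 9 cargo genes 8 fell and 0 rose (median -0.51), SPARC by 0.80 and COL1A1 by 0.68 on the log2 scale. Of 12 heat shock genes 5 rose and 1 fell (median 0.13), HSPA8 the furthest (0.60 ± 0.05), then HSPD1, DNAJA1, HSPE1 and HSPA9, with HSPB1 lower (-0.26). Of 17 immediate early genes 13 fell and 1 rose (median -0.28), BTG2 by -0.67 ± 0.07 and FOSL1 by 0.57 ± 0.06. In translocation and degradation 3 of 20 rose and 4 fell (median -0.02), no larger a share than the 21.9% and 22.9% of all genes, with the ATPase VCP at 0.30 ± 0.05, SSR1 at 0.22 ± 0.05 and DERL3, under 1 CPM, at 1.28 ± 0.32. Those that fell were the lectin OS9 (-0.25 ± 0.06), SEC61A1, SEL1L and SEC61B.

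**Figure D5:**
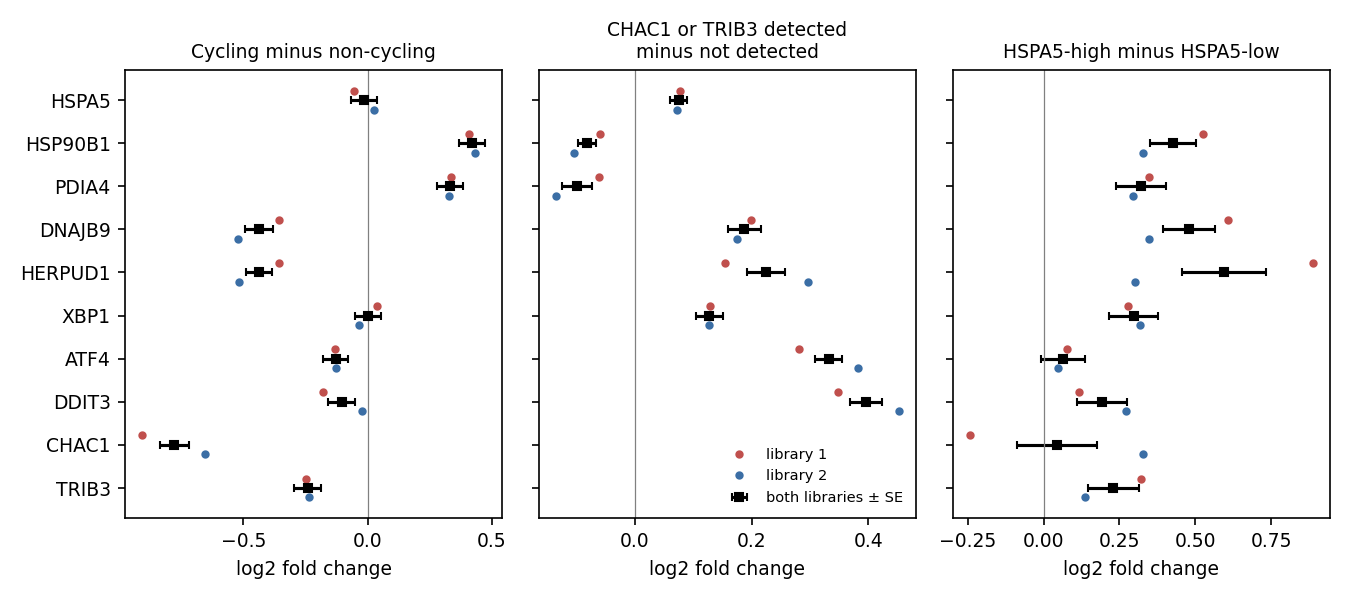
Log2 fold change of each gene in 3 comparisons (x axes differ in range), with the value in library 1 (red), in library 2 (blue) and the edgeR estimate ± SE over both (black). Genes that defined the classes have no point. HSP90B1 and PDIA4 lie right of 0 in the cycling panel (0.42 and 0.33) and left of 0 in the CHAC1 or TRIB3 panel, and CHAC1 lies furthest left in the cycling panel (-0.78).

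Among cycling cells the 10 genes differed little between late and early ones. Late cells had UMIs of more late than early cycle genes (3222 in library 1 and 3864 in library 2), and early cells the reverse (348 and 413). Both classes came from the cycling cells above. Median UMIs were 22782 in late and 23261.5 in early cells of library 1, and 20699 and 24490 in library 2. The part of depth was not tested here either, beyond leaving out the cells of highest UMI count. The core genes CCNB1, PLK1, TPX2, HMMR and CENPF also counted as late genes, and no early gene was a core gene. The classes were thus weighted to late cells, and cells with early genes but fewer than 3 core genes were left out. XBP1 was at 90.5 CPM in late and 75.5 CPM in early cells of library 1, and at 101.7 and 86.9 CPM in library 2 (0.27 ± 0.05, edgeR adjusted p = 0.00148). ATF4 was at 714 against 646 and at 603 against 556 CPM (0.15 ± 0.04, edgeR adjusted p = 0.00795). HERPUD1 was at the threshold, at 279 against 251 and 195 against 189 CPM (0.12 ± 0.04, edgeR adjusted p = 0.0499). CHAC1 was lower in late cells, at 35.0 against 51.5 and 42.7 against 48.6 CPM (-0.34 ± 0.08, edgeR adjusted p = 0.0163).

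The chaperones did not pass between late and early cells. HSPA5 was at 906 against 879 CPM in library 1 and 286 against 294 CPM in library 2 (0.03 ± 0.04, edgeR adjusted p = 0.708), and HSP90B1 at 818 against 809.9 and 673 against 661 CPM (0.04 ± 0.04, edgeR adjusted p = 0.492). PDIA4 was at 106.2 against 95.5 and 108.8 against 107.2 CPM (0.11 ± 0.05, edgeR adjusted p = 0.15). Of the 10 genes 3 passed as higher and 1 as lower, against 8.37% and 7.83% of 16002 genes. That background was not matched for level either. With a fold of 0.5 on the log2 scale 0 were called, against 5.37% of all genes, and the median was 0.14 beside 0.01. At an unadjusted p under 0.05 there were 7 higher and 1 lower, against 28.5% of all genes in either direction, and DESeq2 passed 2 and 0. At 3000 UMIs, XBP1 (edgeR adjusted p = 0.162) and HERPUD1 (0.581) were lost, with DESeq2 HERPUD1 (0.147) and CHAC1 (0.0774), and without the library block all 4. DNAJB9, DDIT3 and TRIB3, which missed the threshold, passed as higher with no filter on low counts (edgeR adjusted p = 0.0416, 0.00486 and 0.0341) and without the cells of highest UMI count (0.0199, 0.000304 and 0.0337).

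Of 20 translocation and degradation genes, 4 rose and 0 fell in late cells: SELENOS (0.54 ± 0.05) and EDEM3 (0.56 ± 0.13), both of ER-associated degradation, with VCP (0.20 ± 0.05) and SELENOK (0.19 ± 0.05). SELENOS was at 121 against 81.4 CPM in library 1 and at 98.5 against 71.1 CPM in library 2. Of 19 folding genes 1 rose, PDIA6 (0.18 ± 0.05). Each list count here stands beside 8.37% of all genes passing as higher and 7.83% as lower. Of 26 other ATF4 targets PHGDH, DDIT4, NUPR1 and PPP1R15A rose, by at most 0.25, and the folate enzyme MTHFD2 (-0.51 ± 0.06), EIF4EBP1 (-0.22 ± 0.04) and ASNS (-0.16) fell. Of 9 cargo genes 7 rose, LOX by 0.48 ± 0.06, and of 17 immediate early genes 5 rose (JUNB by 0.26 ± 0.04, KLF4, KLF6, MYC and ZFP36). Of 12 heat shock genes HSPH1 (0.37 ± 0.04) and DNAJA1 rose and HSPE1 and HSPB1 fell, and of 12 sensors CREB3L1 rose (0.33 ± 0.06).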

How the data were processed

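UMI counts per gene and barcode were used as deposited by the authors, unnormalized. Per the file headers they were made with Cell Ranger 7.0.0, and per the submitters' processing notes with Cell Ranger 7.00 on Sscrofa11.1. The sources used here do not give the annotation, the use of introns or strand, or the settings of the cell caller. Total counts of the cells kept were 209737159 and 245421850 UMIs. No doublet caller was applied. The 10 genes and all 16 lists were chosen with earlier results of these data known. All 10 matched RefSeq by symbol.

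Classes were set on UMIs thinned to 5000 per cell (seed 20), and full counts were summed per library and class. Sums were tested with edgeR 4.0.16 (R 4.3.3; quasi-likelihood F test, TMM, filterByExpr, robust) with the library as a replicate block, because both classes come from the same libraries. Genes that defined a class were left out. Adjusted p-values are Benjamini-Hochberg over all genes tested. Background shares of genes passing or called are over the same genes and were not matched for level. A gene passed at an adjusted p under 0.05 with the same sign in both libraries, and was called if its log2 fold change was also 0.5 or more in size. Each fit had 1 residual degree of freedom beside a prior pooled over genes (median 12.5 to 39.8), so small p-values rest on that pooling, and they measure only the spread between these libraries, which may be technical. SE is the fold change over the root of F. DESeq2 1.42.0 was an alternative. Per list, the 3 genes with the largest change among those passing at 10 CPM or more were named, and for the HSPA5 and the CHAC1 or TRIB3 comparison the largest 5 called rises outside the lists (for HSPA5, 4 qualified). Other list genes named were chosen after their values were seen.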

Additional observations from a re-analysis of the deposited data

Results flagged for a closer look

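The barcodes left out for holding fewer than 1000 genes were used in no comparison, yet they carried the same transcripts well above the floor of 3 counts (1.68 CPM in library 1 and 3.35 CPM in library 2), which is why they are given here. The chaperones HSPA5, HSP90B1 and PDIA4 summed to 1827.73 CPM (3273 UMIs) in these barcodes of library 1, beside 1734 CPM in its cells. In library 2 they summed to 1056.89 CPM (946 UMIs), beside 974 CPM in its cells. CHAC1, TRIB3 and DDIT3 summed to 250.175 CPM (448 UMIs) in library 1, beside 251 CPM in its cells, and to 151.942 CPM (136 UMIs) in library 2, beside 157 CPM.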

How the results depend on the processing

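Counts of genes called with a log2 fold change of at least 0.5 moved with the settings. Between HSPA5-high and HSPA5-low cells 21 were higher and 41 lower. They were 0 and 0 without the replicate block (128 at an unadjusted p under 0.05), 5 and 21 with RLE scaling, 37 and 75 with no filter on low counts, 1 and 7 with DESeq2 and 1 and 1 at 3000 UMIs. Without cells above the 95th percentile of UMIs they were 11 and 25, with the 90th and 10th percentiles 0 and 5, and in non-cycling cells 3 and 10. Between cells with and without CHAC1 or TRIB3, 89 were higher and 19 lower. They were 0 and 0 without the block (139 at an unadjusted p under 0.05), 31 and 1 with DESeq2, 162 and 79 with CHAC1 alone and 168 and 88 with at least 2 UMIs. In addition 61 were lower with no filter, 37 at 3000 UMIs and 46 in cells of 15000 to 30000 UMIs (chosen after seeing the data), and 46 were higher in non-cycling cells. For cycling cells 1411 were higher and 1660 lower, which became 323 and 76 without the block, and 998 lower with DESeq2. For late cells 296 were higher and 564 lower, which became 0 and 0 without the block (1003 at an unadjusted p under 0.05) and 180 and 251 with DESeq2. Between the libraries, 225 and 29 genes became 618 and 76 with a minimum of 1 CPM. In library 2 they were 15 from the mean of thinned UMIs and 5 with the span trend removed.

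Of the 10 genes, XBP1 changed sign between cycling and non-cycling cells, near 0 in each case (-0.000279 without the block, -0.008348 with RLE and -0.001225 with DESeq2). HSPA5 (-0.004919) and TRIB3 (-0.057642) did so between late and early cells at 3000 UMIs. Without the replicate block none of the 10 genes passed in any comparison. The spread in that fit includes the difference between libraries, and why each gene was lost was not tested. Leaving out a library leaves 1 sum per class and no residual degrees of freedom, so no count exists. Depth per cell limits the classes set on scarce genes: after thinning CHAC1 was seen in 19.0% and 18.8% of cells, beside 40.0% and 41.3% in full counts.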
